A study of Mus musculus with 24 samples.

Results

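The 5 genes described here, Glra1, Slc6a5, Tph2, Slc6a4 and Fev, belong to glycine and serotonin transmission, for which the brainstem is known. They were chosen from earlier results on these arrays, in which they were high in 1 cerebellum array, knockout animal 3 (cerebellum KO 3). Of the 5 genes, 4 had a row with that symbol on the array platform, 1 row each, among 19572 rows that carry a gene. Fev, a transcription factor of serotonin neurons, was not analysed here. Because the values of cerebellum KO 3 chose the genes, they are given as a description with no test. Tests of these genes used the other 23 arrays.

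The study measured total RNA on 24 arrays, 1 per animal and region, from cerebral cortex, hippocampus and cerebellum of the mouse. Each region was taken from 4 wild-type (WT) animals and from 4 mice (KO) in which glutamine synthetase, which joins ammonia to glutamate, was knocked out in the liver only. The question behind the study is which cerebral transcripts change under hyperammonemia, a raised level of ammonia. The sources used here give neither strain, age and sex nor the promoter that restricts the knockout to liver. The labels name no further treatment. A deletion in liver cannot be checked in brain RNA. Animals are numbered 1 to 4 within each genotype, so WT 1 and KO 1 are different mice. Values below are deposited log2 values, on which a difference of 1 is a doubling, and errors of group means are standard deviations (SD).

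Glycine is a fast inhibitory transmitter of the brainstem, the spinal cord and some cerebellar interneurons. It opens chloride channels, of which Glra1 encodes a ligand-binding subunit, and Slc6a5 encodes the transporter GlyT2 that refills the terminals of glycine neurons. Serotonin of the brain is made by cell bodies in the raphe nuclei of the brainstem, whose axons reach the cortex, the hippocampus and the cerebellum. These cells use Tph2, the rate-limiting enzyme of serotonin synthesis in neurons, and Slc6a4, the transporter that takes serotonin back up. Messenger RNA of both lies mainly in the cell body.

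Promoters of 3 of the 4 measured genes, Slc6a5, Tph2 and Slc6a4, were found in the RefSeq table of build GRCm38.p6. They are shown because these 3 genes, which belong to different transmitters, were high in the same array. Each sequence is the 250 bases before an annotated start site, written 5′ to 3′ on the strand of the gene. Capitals mark GGAA or its complement TTCC, the core bound by ETS factors such as Fev, and TATAAA, the core of a box near many start sites. Slc6a5 has a pair of annotated start sites, at chr7:49910049-49910298 and chr7:49911450-49911699 on the plus strand. The Tph2 window is chr10:115185023-115185272 on the minus strand, and the Slc6a4 window is chr11:76998347-76998596 on the plus strand.
Slc6a5 first start: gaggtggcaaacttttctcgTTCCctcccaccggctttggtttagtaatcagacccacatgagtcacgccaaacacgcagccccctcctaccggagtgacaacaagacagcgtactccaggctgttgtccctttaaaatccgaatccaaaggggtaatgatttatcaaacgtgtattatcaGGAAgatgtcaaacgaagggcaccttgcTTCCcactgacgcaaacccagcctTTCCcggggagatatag
Slc6a5 second start: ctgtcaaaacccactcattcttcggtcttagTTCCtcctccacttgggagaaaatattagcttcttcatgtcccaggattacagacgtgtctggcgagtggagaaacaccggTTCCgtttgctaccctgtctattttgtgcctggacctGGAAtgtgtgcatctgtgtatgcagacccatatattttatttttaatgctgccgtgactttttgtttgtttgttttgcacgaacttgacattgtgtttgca
Tph2: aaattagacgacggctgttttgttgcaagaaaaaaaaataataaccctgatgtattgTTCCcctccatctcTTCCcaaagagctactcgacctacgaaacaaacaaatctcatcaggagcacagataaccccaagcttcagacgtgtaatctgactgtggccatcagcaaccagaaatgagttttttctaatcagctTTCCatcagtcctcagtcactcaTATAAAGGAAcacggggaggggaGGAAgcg
Slc6a4: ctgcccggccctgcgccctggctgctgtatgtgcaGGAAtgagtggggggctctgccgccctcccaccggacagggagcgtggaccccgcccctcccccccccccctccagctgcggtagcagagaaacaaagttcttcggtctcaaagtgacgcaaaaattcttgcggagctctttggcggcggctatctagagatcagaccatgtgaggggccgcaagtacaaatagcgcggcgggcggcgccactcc

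GGAA or TTCC occurred 5 times in the Tph2 window, 4 and 3 times in the Slc6a5 windows and 1 time in the Slc6a4 window. The same letters were present on either strand in 93.4% of 32851 promoter windows of that length, so their presence does not set these genes apart. TATAAA was found in the Tph2 window alone among the 4, directly before a GGAA with no shared base, and TATAAA or its complement TTTATA was present in 12.4% of all windows. The Slc6a4 window held 64.8% G and C bases, against 43.6% for Tph2 and 50.4% and 43.6% for the Slc6a5 windows.

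Just after its start site, Tph2 carries both blocks of an RE1-type element, the sequence known to bind REST, a repressor of neuronal genes outside neurons. The site is shown because it holds both blocks. It spans chr10:115184988-115185014 on the minus strand, bases 9 to 35 counted from the start site as base 1, with its left and right blocks in capitals.
Tph2 RE1-type site: TTCAGCACCagggttctGGACAGCGCC

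The blocks are 8 bases apart. The left block, TTCAGCACC, was found on either strand in 0.371% of all 300-base promoter windows and the right block in 0.137%. On the strand of the gene, 2 windows of 32851 held both, the Tph2 window among them. Only the exact letters of the Tph2 site were counted, so these numbers do not show how common RE1-type elements are. These matches describe letters and do not show binding.

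Arrays that stood apart were identified before the genes were compared. In cerebellum KO 3, 733 of 19572 genes lay at least 1 log2 unit above the mean of the other 7 cerebellum arrays. Each of those 7 had 2 to 19 such genes against the mean of its own other 7, which included KO 3. In the cortex, KO 1 and KO 4 were rich in olfactory bulb genes, whose list mean was 11.41 and 10.85 there and from 6.95 to 7.53 elsewhere in cortex. Lists of granule and Purkinje cell genes were higher in WT cerebellum than in WT cortex for 7 of 7 and 6 of 6 measured genes, and neocortex genes were lower for 5 of 5, as the region labels say. No dissected brainstem was analysed here, so none of the genes could be checked against that tissue. Neither Glra1 nor Slc6a5 was high in cerebellum KO 3 alone. Slc6a5 was higher in every cerebellum array than in cortex and hippocampus. Glra1, a receptor of cells that receive glycine, was high in single cortex and hippocampus arrays. What tissue these values came from was not tested.

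Glra1, the receptor subunit, varied more between animals than the other 3 genes. In the cortex it read 7.15, 6.69, 7.61 and 10.93 in WT 1 to 4 and 7.67, 6.88, 7.28 and 7.20 in KO 1 to 4. WT 4 lay above the other 7 cortex arrays, which stayed between 6.69 and 7.67. In the hippocampus it read 6.31, 7.59, 9.18 and 7.85 in WT 1 to 4 and 7.80, 9.73, 7.44 and 6.28 in KO 1 to 4. The highest animals were WT 3 and KO 2, and the genotypes spanned nearly the same range. In the cerebellum it read 7.34, 9.0, 9.81 and 8.66 in WT 1 to 4 and 9.73, 9.78 and 8.77 in KO 1, KO 2 and KO 4, with 14.14 in KO 3. Without KO 3 the KO values lay inside the WT range.

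Slc6a5, the glycine transporter of glycine neurons, separated the cerebellum from the other regions. In the cortex it read 7.82, 7.21, 7.31 and 7.25 in WT and 7.49, 7.26, 7.32 and 7.0 in KO. In the hippocampus it read 7.42, 7.53, 6.97 and 6.92 in WT and 7.11, 7.07, 7.05 and 7.20 in KO. All 16 forebrain values lay between 6.92 and 7.82. In the cerebellum it read 9.60, 9.82, 9.93 and 10.20 in WT and 9.79, 10.46 and 9.95 in KO 1, KO 2 and KO 4, with 12.42 in KO 3. Each cerebellum array lay above each cortex and hippocampus array, and the genotypes overlapped in all 3 regions.

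Tph2, the enzyme, gave a signal in the lowest part of the array range. Its median over the 23 arrays stood at percentile 7.23 of all genes, which describes probe signal and not RNA abundance. In the cortex it read 5.43, 5.74, 5.70 and 5.63 in WT and 5.95, 5.76, 5.47 and 5.83 in KO. In the hippocampus it read 6.10, 5.90, 5.64 and 5.86 in WT and 5.99, 6.09, 5.88 and 5.78 in KO. The genotypes overlapped in both regions. In the cerebellum it read 5.61, 5.92, 6.17 and 5.59 in WT and 5.38, 6.10 and 6.25 in KO 1, KO 2 and KO 4, with 10.35 in KO 3. The other 23 arrays thus lay between 5.38 and 6.25, whatever the region.

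Slc6a4, the serotonin transporter, showed the same shape. In the cortex it read 7.10, 7.60, 7.84 and 7.60 in WT and 7.45, 7.22, 7.49 and 7.56 in KO. In the hippocampus it read 7.05, 7.78, 7.49 and 7.34 in WT and 7.56, 7.28, 7.28 and 7.53 in KO. All forebrain values lay between 7.05 and 7.84, and the KO values lay inside the WT range in both regions. In the cerebellum it read 7.76, 8.11, 8.02 and 7.18 in WT and 7.21, 8.16 and 8.39 in KO 1, KO 2 and KO 4, with 12.36 in KO 3. KO 4 was the highest array after KO 3, as it was for Tph2.

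**Figure D1:**
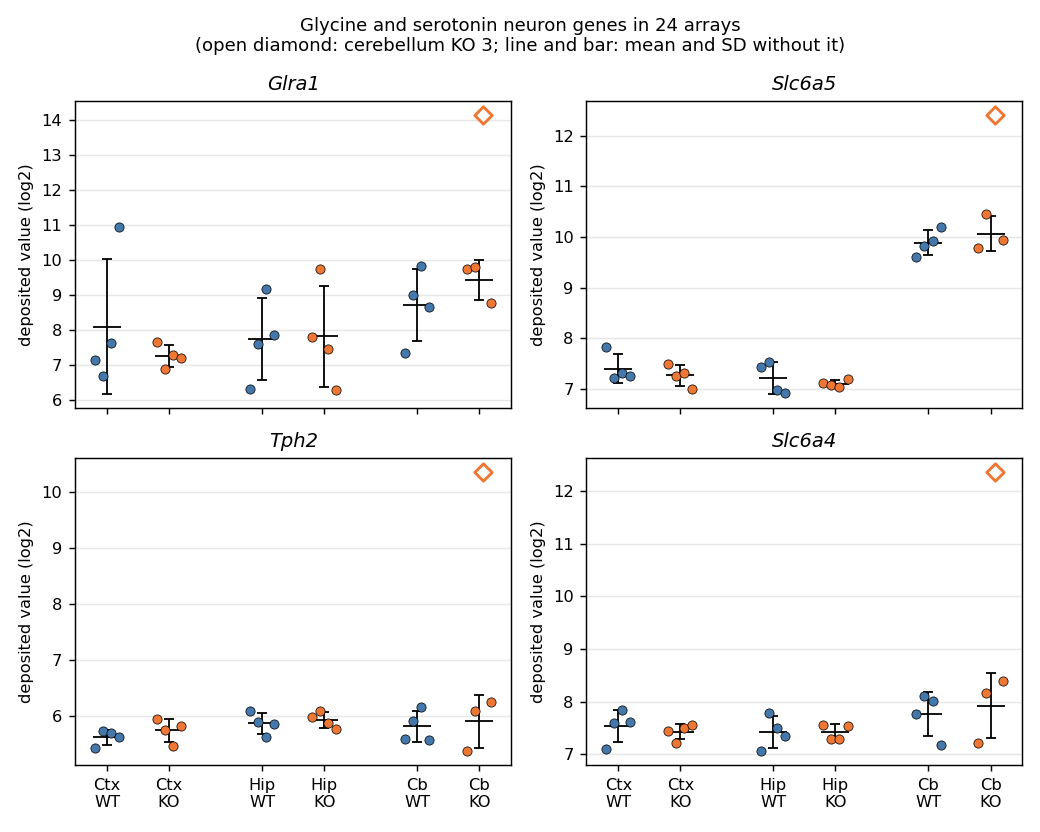
Deposited log2 values of Glra1, Slc6a5, Tph2 and Slc6a4 in each array (points), with the mean of each group and 1 SD (bars), for WT (blue) and KO (orange) of cortex (Ctx), hippocampus (Hip) and cerebellum (Cb). Cerebellum KO 3 is drawn apart, left out of the mean, and reads 14.14, 12.42, 10.35 and 12.36 in that order of genes.

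Slc6a5 was the gene of the 4 that differed between WT regions. Its WT mean was 9.89 ± 0.25 (SD, n = 4) in the cerebellum, 7.40 ± 0.29 in the cortex and 7.21 ± 0.31 in the hippocampus. The cerebellum exceeded the cortex by 2.49 (standard error, SE, 0.17; limma, Benjamini-Hochberg adjusted p = 3.09e-12) and the hippocampus by 2.68 (SE 0.17; limma adjusted p = 7.23e-13). Of all genes, 37.2% were called between WT cerebellum and cortex (19.8% higher, 17.4% lower) and 36.4% between cerebellum and hippocampus (18.3% higher, 18.1% lower), at an adjusted p below 0.05. Cortex and hippocampus, the neighbours at the low end, differed by -0.19 (hippocampus minus cortex, limma adjusted p = 0.541), within their spread, where 9.17% of all genes were called (5.22% higher in hippocampus, 3.95% lower).

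Glra1 had the same highest region, but its order did not hold against the spread. WT means were 8.70 ± 1.03 in the cerebellum, 8.09 ± 1.93 in the cortex and 7.73 ± 1.17 in the hippocampus (SD, n = 4). Cerebellum exceeded cortex by 0.61 (SE 0.72; limma adjusted p = 0.571) and hippocampus by 0.97 (limma adjusted p = 0.328). The difference between hippocampus and cortex was -0.36 (limma adjusted p = 0.814). The array cortex WT 4 weighed on the first comparison: without it cerebellum exceeded cortex by 1.55 (SE 0.61; limma adjusted p = 0.0497).

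Neither serotonin gene passed the test between WT regions. Tph2 means were 5.88 ± 0.19 in the hippocampus, 5.82 ± 0.28 in the cerebellum and 5.63 ± 0.14 in the cortex (SD, n = 4), and neighbours in that order overlapped. Slc6a4 means were 7.77 ± 0.42 in the cerebellum, 7.53 ± 0.31 in the cortex and 7.42 ± 0.31 in the hippocampus. The 3 differences of Tph2 had limma adjusted p from 0.372 to 0.841 and those of Slc6a4 from 0.217 to 0.789. Without cerebellum WT 4, Slc6a4 exceeded the hippocampus by 0.55 in the cerebellum (limma adjusted p = 0.0468), against 0.35 with it. In such bulk tissue, fewer cells of a type and less RNA per cell cannot be told apart.

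The wider glycine list held 14 measured genes of receptors, scaffold, transport and turnover. In the cerebellum against the cortex 7 of the 14 were called higher and 2 lower, beside 19.8% and 17.4% of all genes. The median difference was 0.48, beside -0.02 for all genes. Against the hippocampus 6 were higher and 2 lower, beside 18.3% and 18.1% of all genes. Between hippocampus and cortex 1 of 14 differed, beside 9.17% of all genes. Slc6a9, the transporter that clears glycine mainly into glia, was higher by 1.30 in cerebellum than in cortex (SE 0.20; limma adjusted p = 7.01e-06). The receptor subunits Glra3 and Glra2 ran the other way. Glra3 differed by -3.05 (SE 0.53; limma adjusted p = 3.63e-05) and Glra2 by -1.51 (SE 0.32; limma adjusted p = 3.97e-04). Slc6a5 and these receptor genes therefore had different regional orders.

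The serotonin list held 15 measured genes of synthesis, transport, breakdown and cell identity. Against the cortex 2 were higher in the cerebellum and 1 lower, with a median difference of 0.09. Of all genes, 19.8% were called higher there and 17.4% lower. Against the hippocampus 1 was higher and 3 lower, beside 18.3% and 18.1% of all genes. Between hippocampus and cortex 1 was higher in hippocampus and 1 lower, beside 5.22% and 3.95% of all genes. Htr1a, a serotonin receptor made by target neurons and by serotonin neurons themselves, was lower in cerebellum than in cortex by -1.06 (SE 0.14; limma adjusted p = 1.20e-06). It was also higher in hippocampus than in cortex by 1.12 (SE 0.14; limma adjusted p = 1.05e-05). Maoa, which breaks down serotonin, and Nkx2-2, a patterning factor, were the pair called higher in cerebellum than in cortex, by 0.61 and 0.48.

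None of the 4 genes passed the test between KO and WT in any region. In limma, 0 of 19572 genes (0%) were called in the cortex, the hippocampus or the cerebellum without KO 3, while 1675, 476 and 688 had an unadjusted p below 0.05. KO and WT values of the 4 genes overlapped in 12 of 12 comparisons of gene and region. Over all genes, the groups did not overlap in 3.68%, 2.17% and 5.08% of rows in the 3 regions.

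In the cortex, Glra1 differed by -0.84 (KO minus WT, 95% interval -2.32 to 0.65; limma adjusted p = 0.776), and without WT 4 by 0.11. The other 3 had narrower intervals there: Slc6a5 -0.13 (-0.47 to 0.21), Tph2 0.12 (-0.21 to 0.45) and Slc6a4 -0.11 (-0.55 to 0.33), with limma adjusted p from 0.859 to 0.921. Without KO 1 and KO 4, the arrays rich in olfactory bulb genes, the cortex differences were -1.01 for Glra1, -0.11 for Slc6a5, -0.014 for Tph2 and -0.18 for Slc6a4. That turned the sign of Tph2, whose difference was within its error in both cases. In the hippocampus, Glra1 differed by 0.08 (-1.40 to 1.57), Slc6a5 by -0.11 (-0.45 to 0.24), Tph2 by 0.06 (-0.27 to 0.39) and Slc6a4 by -0.0027 (-0.44 to 0.44). For 3 of the genes these intervals leave out a doubling of the deposited value in either direction, and for Glra1 they do not. The medians of these 3 lay at percentiles 28.65 (Slc6a5), 7.23 (Tph2) and 31.79 (Slc6a4) of all genes. RMA draws together differences among dim probes and detection was not judged, so a doubling of RNA is not left out.

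In the cerebellum without KO 3, the KO means were 9.43 ± 0.57 for Glra1, 10.07 ± 0.35 for Slc6a5, 5.91 ± 0.47 for Tph2 and 7.92 ± 0.62 for Slc6a4 (SD, n = 3). KO minus WT was 0.73 (-0.88 to 2.33), 0.18 (-0.19 to 0.55), 0.09 (-0.27 to 0.45) and 0.15 (-0.32 to 0.63) in that order, each with a limma adjusted p of 0.999. With KO 3 kept in its group, the same differences read 1.90, 0.76, 1.20 and 1.26, so 1 array supplied most of each value. A test of whether the KO effect differed between regions called 0 genes in limma (743 at an unadjusted p below 0.05), with an adjusted p of 1.00 for the 4 genes.

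In cerebellum KO 3 itself, Glra1 exceeded the mean of the other 7 cerebellum arrays by 5.12 (34.8-fold), the largest excess of all 19572 genes. The SD of those 7 arrays was 0.89, and the highest of them lay 4.33 below KO 3. Slc6a4 exceeded by 4.53 and Tph2 by 4.49, ranks 5 and 6, beside SDs of 0.47 and 0.34. Slc6a5 exceeded by 2.45 (5.47-fold), rank 47, from a cerebellar level that was already high. Of all genes, 23.8% lay above all 7 other arrays in KO 3 and 27.9% below all of them. The share at least 1 log2 unit above their mean was 3.75%, and at least 2 units 0.506%. The rule chose the 4 genes on this array, so nothing is read from their ranks. Between Glra1 and Slc6a4 in rank were Lamp5 (5.09), a membrane protein of certain neurons, Ttr (4.88), a choroid plexus carrier protein, and Lcn2 (4.86), which binds iron carriers in inflammation. Ttr and Lcn2 also varied among the other 7 arrays, with SDs of 3.59 and 2.34, and Lamp5 did so less (0.32).

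The other glycine genes lay on both sides in cerebellum KO 3, as did genes over the whole array. Leaving out Glra1 and Slc6a5, 7 of 12 lay above all other cerebellum arrays and 4 below. Of all genes, 23.8% lay above and 27.9% below. The median excess of the list was 0.49, beside -0.06 for all genes. Glra3, whose WT level was low in cerebellum, read 10.12 against 5.71 to 8.59 in the other 7. Glra2 read 10.35 against 7.41 to 8.95. Some genes of glycine breakdown, named after their values were seen, were low: Gldc read 8.60 against 9.56 to 10.23 and Amt 10.12 against 10.70 to 11.31. Gcsh, of the same enzyme complex, was 0.79 above the mean of the other 7, so that complex read unevenly.

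The other serotonin genes were mostly high in that array. Leaving out Tph2 and Slc6a4, 10 of 13 lay above all other cerebellum arrays and 0 below, with a median excess of 0.99. Of all genes, 23.8% lay above and 27.9% below. Ddc, which makes serotonin and dopamine from their precursors, read 10.73 against 7.99 to 8.54. Slc18a2, the vesicle transporter of all monoamines, was named after its values were seen and read 10.26 against 8.07 to 9.21. Lmx1b and Nkx2-2, factors that specify serotonin neurons, did not stand out: Lmx1b read 10.22 against 10.09 to 10.51, and Nkx2-2 read 8.09 against 7.87 to 8.21. Gata2, another such factor, was 0.81 above the mean of the other 7. Lmx1b and Gata2 were named after their values were seen. Lmx1b read higher in cortex WT 3 (10.97) than in cerebellum KO 3, so whether its row reports serotonin neurons cannot be told.

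**Figure D2:**
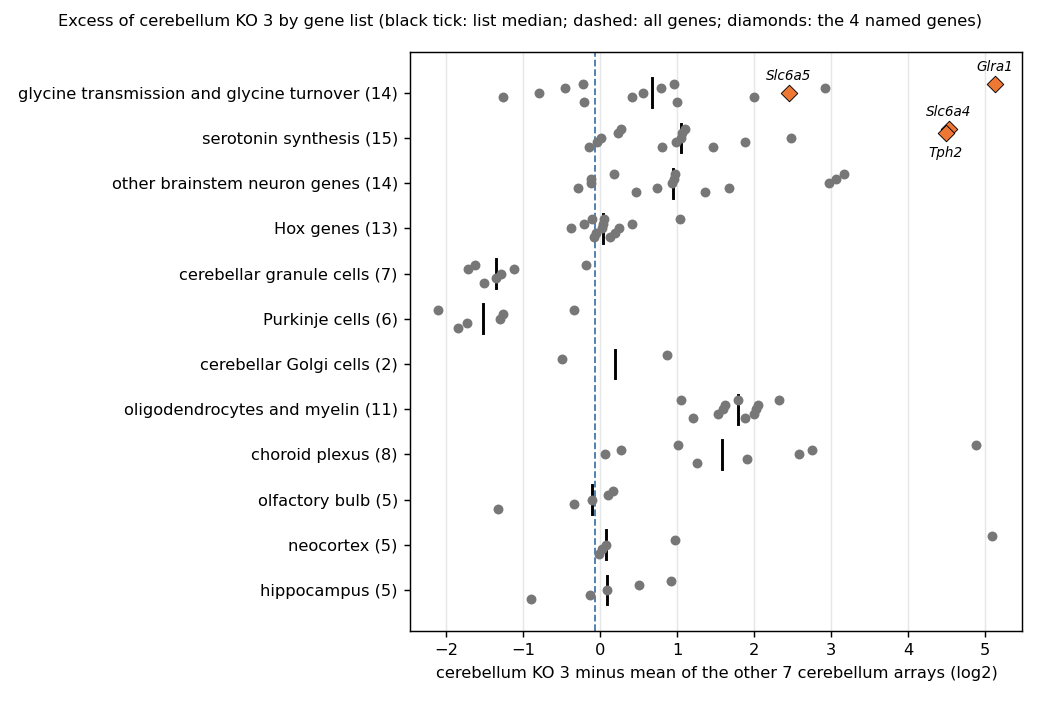
Value of cerebellum KO 3 minus the mean of the other 7 cerebellum arrays (log2) for each measured gene of 12 lists (points; number of genes in brackets), with list medians (black ticks) and the median of all genes (dashed). Glra1, Slc6a4, Tph2 and Slc6a5 (diamonds) lie at 5.12, 4.53, 4.49 and 2.45, while granule and Purkinje cell lists have medians of -1.35 and -1.51.

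Markers of other cells moved in the same array, where 23.8% of all genes lay above all 7 other cerebellum arrays and 27.9% below. Other brainstem genes, whose mean read 8.69 in KO 3 and 7.23 to 7.75 in the other 7, were above all of them in 9 of 14 cases. Those of largest excess were Dbh of noradrenaline neurons (10.87 against 7.15 to 8.53), Slc5a7 of cholinergic neurons (9.65 against 6.18 to 7.17) and Slc17a6 of glutamate neurons (13.77 against 8.41 to 12.08). From the same list, Th was only 0.75 above the mean of the other 7. Phox2a (8.03 against 7.99 to 8.36), Slc6a3, Tal1, Isl1 and Pou4f1 were not above all of them. All 11 myelin genes were above, with a list mean of 14.23 against 12.13 to 12.71. Choroid plexus genes had a list mean of 11.59 against 8.74 to 12.08, with 1 of 8 above all others. Granule cell genes were below all others in 6 of 7 cases (list mean 13.13 against 13.996 to 14.59) and Purkinje cell genes in 5 of 6 (14.03 against 15.11 to 15.62). Of 13 Hox genes, which mark the hindbrain and the spinal cord, 3 were above and 2 below, with a median excess of 0.04 and the largest in Hoxa2 (8.42 against 7.22 to 7.75). The Hox share above, 23.08%, was near that of all genes. The part of these cell types in the values of Glra1, Slc6a5, Tph2 and Slc6a4 was not tested.

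**Figure D3:**
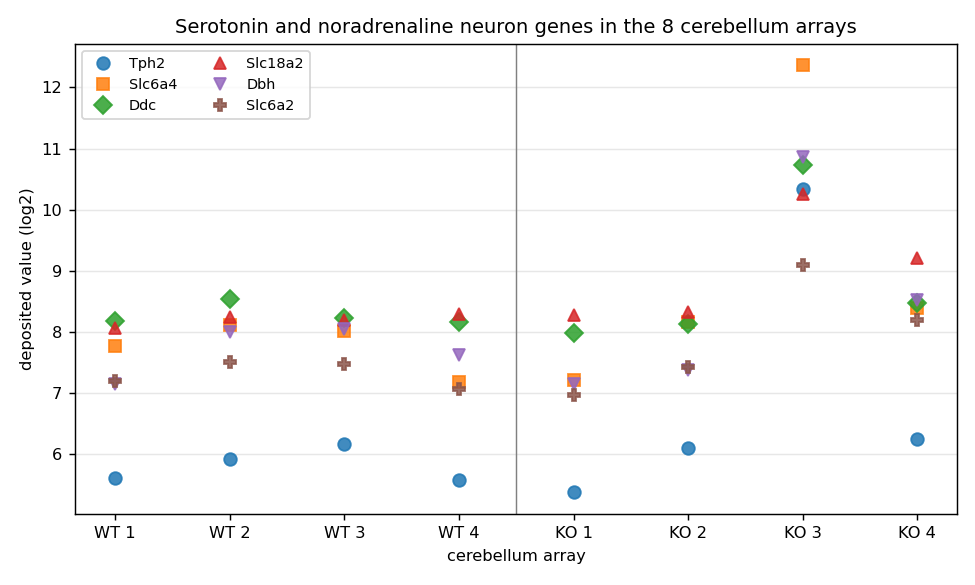
Deposited log2 values of Tph2, Slc6a4, Ddc, Slc18a2, Dbh and Slc6a2 (symbols) in each of the 8 cerebellum arrays, WT left of the vertical line and KO right of it. KO 3 is highest for each gene, and KO 4 is second for 5 of the 6, Ddc being the exception. The 6 were picked from longer lists, and the share of all genes with KO 4 second was not counted.

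These monoamine genes were named with their KO 3 values known, so their shared highest array is no separate result. Of them, 5 also shared their second, though Tph2 read nearly the same in cerebellum WT 3 (6.17). The share of all genes with KO 4 second was not counted, so nothing is read from that number. In KO 4, Slc6a4 read 8.39, Tph2 6.25, Slc18a2 9.21, Dbh 8.53 and Slc6a2, the noradrenaline transporter, 8.19. In WT cerebellum Dbh reached 8.05 (WT 3) and Slc6a2 7.51 (WT 2). In the 16 cortex and hippocampus arrays Dbh reached at most 7.62 and Slc6a2 at most 7.42.

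Likeness of pattern was measured by Pearson's r over arrays, which share region differences and, with KO 3 included, 1 extreme array. Over all 24 arrays, Tph2 was most like Slc6a4 (0.95), Glrx5 (0.90) and Ddc (0.90). Slc6a4 was most like Tph2 (0.95), Dbh (0.92) and Slc6a2 (0.86). Without KO 3, r of Tph2 and Slc6a4 was 0.47 over 23 arrays, so most of that likeness rested on 1 array. The closest genes over 23 arrays were then Grtp1 (0.69), Alyref (0.68) and Daxx (0.67) for Tph2, and Cmtm7 (0.74), Asb10 (0.73) and En1 (0.72) for Slc6a4.

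Slc6a5 followed the region instead. Over 24 arrays its closest genes were Kctd9 (0.96), Sacm1l (0.96) and S100b (0.94). Over 23 arrays they were Aqp6, Cbln3 and Crtam (0.98 each), of which Cbln3 is a granule cell gene. Glra1 and Slc6a5, both of the glycine synapse, had an r of 0.67 over 24 arrays and 0.45 over 23. Across the transmitters, Glra1 and Tph2 had 0.70 and then 0.11, and Slc6a5 and Slc6a4 had 0.675 and then 0.50.

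Glra1 kept its likeness to Slc17a6 without KO 3, though its closest genes changed. Over 24 arrays its closest genes were Ankrd55, Ache and Slc17a6 (0.87 each), and over 23 they were Tcf7l2 (0.88), Ebf3 (0.82) and Etnppl (0.82). Ache breaks down acetylcholine, Tcf7l2 is a transcription factor that marks the thalamus among other places, and Slc17a6 encodes the vesicular glutamate transporter of the thalamus and brainstem. With Slc17a6, r was 0.82 over 23 arrays, which ranked 4 among all genes. The array highest in Glra1 was also highest in Slc17a6 in cortex WT (WT 4, 12.52), hippocampus WT (WT 3, 11.88), hippocampus KO (KO 2, 12.31) and cerebellum WT (WT 3, 12.08). The same held in cerebellum KO, with or without KO 3. In cortex KO it did not hold: Glra1 was highest in KO 1 (7.67), where Slc17a6 read 10.09, and Slc17a6 was highest in KO 3 (10.78). The part of tissue that expresses Slc17a6 in the spread of Glra1 was not tested.

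**Figure D4:**
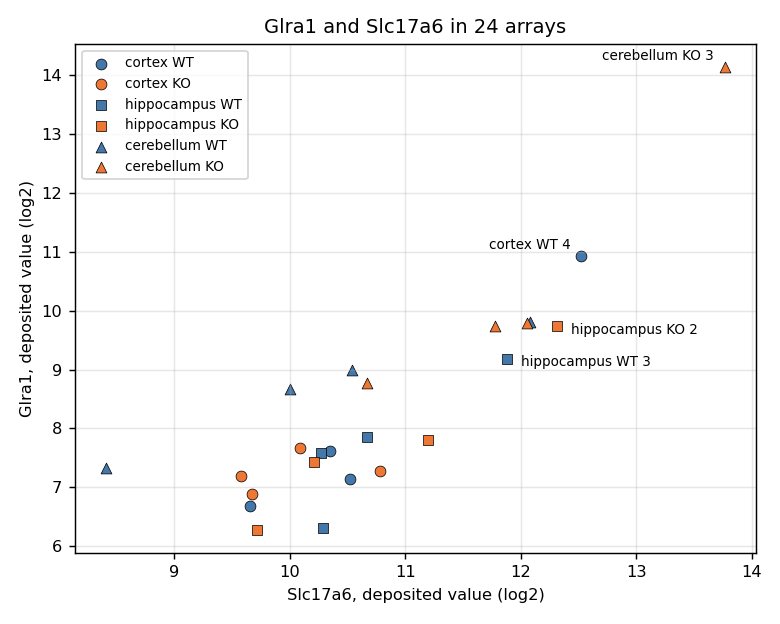
Deposited log2 value of Glra1 against that of Slc17a6 in the 24 arrays, by region (shape) and genotype (colour). Cortex WT 4 (10.93 for Glra1), hippocampus KO 2 (9.73) and hippocampus WT 3 (9.18) lie apart from the other forebrain arrays on both axes, and cerebellum KO 3 (14.14) is highest on both.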

How the data were processed

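The values analysed are log2 values per transcript cluster and array, made by the authors with RMA (background correction, normalization between arrays, summary of probes), per the submitters' processing notes. The sources used here give no version of RMA and no build. That the scale is log2 follows from the deposited values (lowest 3.89, highest 19.14, medians of arrays 8.72 to 8.82). In 291 rows at least 1 array exceeded 16, and the labels name both biotin and Cy3, so folds are those of deposited values. Detection over background was not judged, as scanner files were not used. RMA draws together differences among dim probes.

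Of 22206 rows, 19572 had a gene in the platform annotation. They entered limma 3.58.1 (R 4.3.3; lmFit, eBayes; 23 arrays, 1 mean per group, 17 residual degrees of freedom), 2-sided, with Benjamini-Hochberg adjustment over all 19572 and a threshold of 0.05. The procedure was tested on simulated data. Cerebellum KO 3 was left out because it chose the genes. A gene with several rows would be read from the row of highest mean. The genes and lists were chosen with earlier results of these data known. The genes named with values follow a rule: the chosen genes, up to 4 of the glycine and serotonin lists with the largest WT difference of cerebellum and cortex, 3 of another list with the largest excess in KO 3, the 5 largest excesses of all, and the 3 most alike genes per gene. Genes outside it were chosen after their values were seen. Whether arrays of 1 group come from separately housed or extracted animals is not stated beyond their animal numbers, and 4 arrays a group limit the precision.

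Same-numbered arrays were checked for pairing by the correlation of their deviations from the group means. It ran from -0.19 to 0.18 for 1 animal across regions and from -0.24 to 0.09 for WT and KO of the same number. Alternatives were leaving out each array, the animal as a random block (statmod 1.5.0), the number as a fixed block, a further quantile normalization, median centring, a filter on dim rows, fitting only the groups compared, keeping KO 3, and a 2-fold call. Promoters came from RefSeq (GRCm38.p6).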

Additional observations from a re-analysis of the deposited data

Results flagged for a closer look

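Dixon's test looks for an array whose gap to the next, as a share of the range of 4, exceeds a critical value. Cerebellum KO was left out of it for Glra1, Slc6a5, Tph2 and Slc6a4, since KO 3 chose these genes. In the remaining 20 combinations of gene and group no array exceeded that value. Of 72 list means looked at in the same way, 8 held such an array, most often cerebellum KO 3. The lists were chosen with earlier results of these data known, and the list means of 1 array are not independent. The count is therefore a description and is not set against chance. In cerebellum KO, the array beyond the gap was KO 3 for the other brainstem neuron genes (8.69), myelin (14.23), choroid plexus (11.59) and neocortex (9.65), each the highest of 4. The neocortex mean rested mostly on Lamp5, 5.09 above the mean of the other 7 cerebellum arrays, while the median excess of that list was 0.07. KO 3 was the lowest of 4 for granule cell genes (13.13) and Purkinje cell genes (14.03). In cerebellum WT, WT 3 was the highest of 4 for the glycine list without Glra1 and Slc6a5 (10.67), and WT 2 the lowest of 4 for granule cell genes (13.996). Some flags hold only within the 4 arrays of a group. Cerebellum KO 2 read 10.69 for that glycine list, and cerebellum WT 2 read 12.08 for choroid plexus.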

How the results depend on the processing

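Slc6a5 remained higher in WT cerebellum under every alternative run, by 2.38 to 2.63 against cortex and 2.57 to 2.78 against hippocampus when each array was left out. The excess of KO 3 ranged with each other array left out from 4.84 to 5.25 (Glra1), 2.39 to 2.53 (Slc6a5), 4.40 to 4.55 (Tph2) and 4.42 to 4.62 (Slc6a4). Leaving out each array moved the number of genes called between KO and WT from 0 to between 0 and 92 in cortex (92 without KO 2, 55 without KO 3) and between 0 and 7 in cerebellum (7 without WT 3). Hippocampus against cortex in WT ranged from 1185 (without cortex WT 2) to 1954 calls. Requiring also a 2-fold difference left 1954, 1927 and 272 genes between cerebellum and cortex, cerebellum and hippocampus, and hippocampus and cortex.

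Signs that turned were of differences inside their error. KO minus WT ranged with each array left out, in cortex, from -1.30 to 0.11 (Glra1) and -0.21 to 0.0091 (Slc6a5). In hippocampus it ranged from -0.56 to 0.59 (Glra1), -0.20 to 0.0008 (Slc6a5), -0.018 to 0.14 (Tph2) and -0.12 to 0.12 (Slc6a4). In cerebellum it ranged from -0.018 to 0.32 (Slc6a5), -0.081 to 0.36 (Tph2) and -0.079 to 0.51 (Slc6a4). In WT, cerebellum minus hippocampus ranged from -0.17 to 0.025 (Tph2), and hippocampus minus cortex from -0.84 to 0.58 (Glra1) and -0.26 to 0.0028 (Slc6a4). Tph2 in cortex read -0.014 without KO 1 and KO 4; the other 155 values of these genes under other settings kept direction and call.

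With the number as a fixed replicate block, 1 gene was called in cerebellum and 1 for a KO effect that differs between regions, none of them Glra1, Slc6a5, Tph2 or Slc6a4. The animal as a random block (consensus correlation -0.0014) changed no call of these genes. The dim-row filter removed Tph2, and no gene had a second row, so those alternatives gave no value. The cause of these shifts was not tested.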
